A study of Homo sapiens with 6 samples.

Results

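The microtubule affinity-regulating kinases MARK1, MARK2, MARK3 and MARK4 and their upstream kinase STK11 (LKB1) were examined in SW480 cells, a line derived from a human colon adenocarcinoma. The 5 genes were chosen by name, out of 56303 gene symbols in the count table, together with every record they had in the table of differential splicing events, which was 1 of 1582 records. Messenger RNA had been sequenced from 3 libraries of cells carrying a non-silencing hairpin (shCtrl, genotype listed as WT) and 3 libraries of cells carrying a hairpin against RBM39 (shRBM39), an RNA-binding protein that works with the early spliceosome. Both hairpins were delivered by lentivirus, and the study describes stable clonal lines selected with puromycin, so all 6 libraries share infection and selection, and the number of clones and of hairpin sequences per group is not given in the sources used here. The study set up 3 replicate experiments per group, and where these were not separate cultures the p-values below measure only the spread between libraries.

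The MARK kinases are the mammalian relatives of PAR-1, a serine/threonine kinase that sets up cell polarity in worms and flies. They phosphorylate microtubule-associated proteins such as tau, MAP2 and MAP4, which then leave the microtubule, and in epithelial cells MARK2 marks the basolateral side. STK11, a tumour suppressor mutated in a syndrome of intestinal polyps, activates all MARKs and other AMPK-related kinases by phosphorylating their activation loop, together with the pseudokinase STRAD and the scaffold MO25. On the apical side, atypical PKC phosphorylates MARKs, and 14-3-3 proteins then bind them and keep them off the membrane.

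Total counts ran from 18042924 to 20428901 per library, and 18243 genes passed the filter on low counts, including all 5 members. RBM39, the target of the hairpin, had 441, 448 and 435 CPM (counts scaled to a common library size with edgeR's TMM factors) in shCtrl and 266, 276 and 292 CPM in shRBM39. It fell by 37.0% (log2 fold change -0.67, SE 0.04, adjusted p = 1.24e-16, edgeR's quasi-likelihood test). Of the 7 colon epithelial markers 6 had at least 10 counts in every library, with summed levels of 11348 to 11933 CPM in shCtrl and 13246 to 13696 CPM in shRBM39. These and the other marker sums are CPM of library totals, without the TMM factors. The epithelial keratins KRT8 and KRT18 supplied most of this sum, and the intestinal markers went both ways, with log2 fold changes of -2.13 for CDX2, -1.34 for CDH17, -0.09 for VIL1 and 1.82 for KRT20, all called in edgeR. KRT20, the only rise among these intestinal markers, had no more than 25 counts in any library, and CDH17 no more than 61. Fibroblast, leukocyte and endothelial lists summed to no more than 14 CPM in any library, each higher in shRBM39 than in shCtrl (13.4 to 14 against 10.5 to 11.6, 2.08 to 2.84 against 1.09 to 1.69 and 6.18 to 7.64 against 3.58 to 4.79 CPM). Of the fibroblast markers COL1A1 was called (log2 fold change 0.81) and LUM was not (-0.08, adjusted p = 0.633, edgeR). The other fibroblast markers had no more than 3 counts in any library. LYZ (1.03) was the only leukocyte marker with more than 4 counts. PECAM1 (0.79) and VWF (1.39) were called among the endothelial markers. The part of these lists in the members' values was not tested. The leukocyte marker PTPRC had 0 counts in all 6 libraries.

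Only MARK2 had a record among the listed splicing events, and its sequence is shown first because the record turns on it. The record is a skipped exon (SE) event of exon 15 of the 19 exons of the canonical transcript, at chr11:63903986-63904147 on the plus strand of GRCh38, between exon 14 (chr11:63903061-63903158) and exon 16 (chr11:63904786-63905043). The exon is 162 bases long, a length divisible by 3. It is wholly coding and holds 0 in-frame stop codons. It covers codons 505 to 559 of the 788 codons of the canonical coding sequence. In the lines that follow capitals mark exon bases and lower case marks the 30 intronic bases on each side (chr11:63903956-63904177) or, for the flanking splice sites, the intron next to the exon.
MARK2 exon 15 with its splice sites: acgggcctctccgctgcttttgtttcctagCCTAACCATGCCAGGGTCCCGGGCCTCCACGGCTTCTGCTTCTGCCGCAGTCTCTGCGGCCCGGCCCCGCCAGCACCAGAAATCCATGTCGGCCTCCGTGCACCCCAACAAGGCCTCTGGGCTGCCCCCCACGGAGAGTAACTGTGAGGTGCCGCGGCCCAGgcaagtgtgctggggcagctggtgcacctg
Donor of exon 14 (chr11:63903150-63903173): CAAAGACAGgtgagagacccgggc
Acceptor of exon 16 (chr11:63904756-63904794): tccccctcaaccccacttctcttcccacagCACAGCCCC

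The donor of exon 15 begins with GC in place of the usual GT, whereas the donor of exon 14 begins with GT. GC donors were rare among the listed events too: 16 of 1198 distinct SE exons (1.34%) and 8 of 1143 upstream exons (0.7%) had one, against 2985 of 217023 donors (1.38%) of protein-coding transcripts in GENCODE v44. The acceptor of exon 15 was pyrimidine-rich, with C or T at 85% of the 20 bases before its AG, and the acceptor of exon 16 had 80%. GC content was 69.1% in exon 15, 58.2% in exon 14 and 64.7% in exon 16, and the introns on either side, of 827 and 638 bases, had 58.8% and 57.7%. Read in frame the exon has a length of 54 codons, of which 11 encode serine, 7 proline, 3 threonine, 6 arginine or lysine and 2 aspartate or glutamate. GENCODE v44 lists 5 transcripts that contain the exon, all protein coding, and 11 that join exon 14 to exon 16 directly, of which 6 are protein coding.

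**Figure D1:**
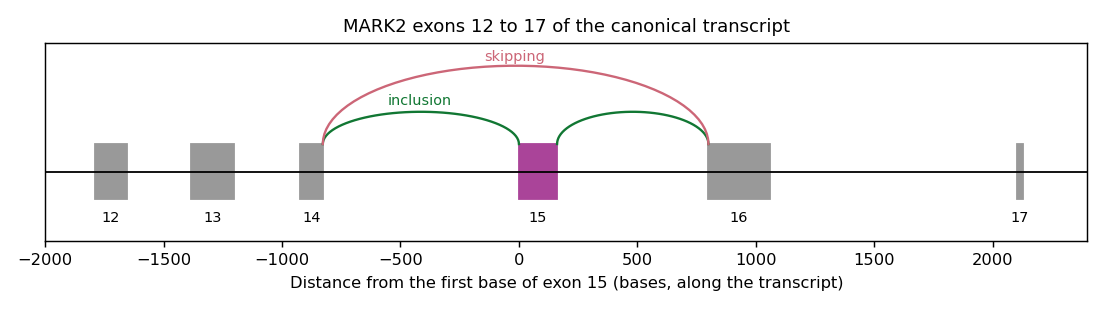
Exons 12 to 17 of the canonical MARK2 transcript, drawn to scale as boxes along the distance in bases from the first base of exon 15 (purple). The green arcs join exon 15 to its neighbours over introns of 827 and 638 bases (inclusion), and the red arc joins exon 14 to exon 16 (skipping).

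Exon 15 was included less often in the libraries of group 1 than in those of group 2. The table names its columns only group 1 and group 2 and carries no key to the knockdown, so these names are kept, and the values are not matched to shCtrl and shRBM39 here. The inclusion level is the share of transcripts with the exon, from reads divided by the effective length of each form (292 for inclusion and 130 for skipping). In group 1 the level was 0.569 from 83 inclusion and 28 skipping reads (95% Wilson interval 0.463 to 0.669), 0.462 from 54 and 28 reads (0.353 to 0.574) and 0.338 from 47 and 41 reads (0.252 to 0.436). In group 2 it was 0.734 from 99 and 16 reads (0.620 to 0.823), 0.688 from 99 and 20 reads (0.578 to 0.780) and 0.763 from 101 and 14 reads (0.649 to 0.848). The highest level of group 1 lay below the lowest of group 2, and the 3 values of group 1 were the more spread out. These intervals cover counting error only.

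The mean level was 0.456 ± 0.116 (SD, n = 3) in group 1 and 0.728 ± 0.038 (SD, n = 3) in group 2, a difference of -0.272. The form without the exon thus made up 54.4% of the measured MARK2 transcripts at this site in group 1 and 27.2% in group 2. The exact two-sided permutation test gave p = 0.1, the smallest value that 3 against 3 allows. Summed over libraries, group 1 had 184 inclusion and 97 skipping reads and group 2 had 299 and 50. In an edgeR fit of inclusion against skipping reads over all listed records, the log2 odds of inclusion differed by -1.66 (SE 0.32, adjusted p = 3.26e-06), and 37.3% of the listed records passed the same threshold. The authors listed only records with a p-value under 0.05 and a difference of at least 0.1 in this contrast, so these values describe a selected event and are no independent test of it. Leaving out any 1 library gave differences from -0.328 to -0.213.

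**Figure D2:**
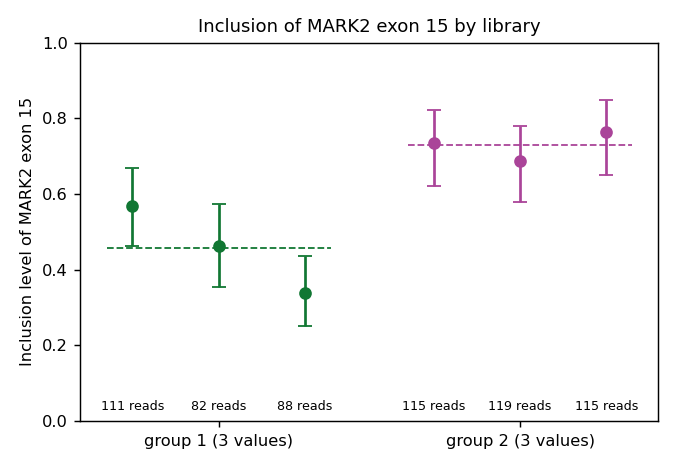
Inclusion level of MARK2 exon 15 (vertical axis, share of transcripts) for the 3 values of group 1 (green) and of group 2 (purple), with 95% Wilson intervals, the reads behind each value and the group means as dashed lines. The levels run from 0.338 to 0.569 in group 1 and from 0.688 to 0.763 in group 2.

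Against the other SE records the MARK2 event was deeply covered and of more than middle size. It had 82 to 119 reads per library, and its shallowest library was deeper than that of 88.8% of the 1263 SE records, whose median was 10 reads. Its absolute difference was larger than that of 67.5% of them, whose median was 0.206. Its direction was the common one, since 72.6% of the SE records were lower in group 1, and 47.3% of SE exons likewise had a length divisible by 3. For MARK1, MARK3, MARK4 and STK11 no record was listed. As only events past the authors' thresholds are in the table, this gives no inclusion level for those genes.

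Turning to gene level, 4 of the 5 members were lower in shRBM39, MARK3 and MARK1 the most, and MARK2, the member with the splicing record, did not pass the test. Across all tested genes 59.1% passed an adjusted p of 0.05, with 29.9% lower and 29.2% higher, so a lower call was common in this comparison. The members' median log2 fold change was -0.23, against -0.01 over all tested genes. For MARK1, MARK3, MARK4 and STK11 every shRBM39 library lay below every shCtrl library, and 32.3% of tested genes were lower without overlap. The 14 pseudogene symbols named after members had 4 counts in all over the 6 libraries. In bulk libraries, fewer cells expressing a gene and less RNA per cell cannot be told apart.

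MARK3, also known as C-TAK1, phosphorylates CDC25C and the scaffold KSR1 and thereby creates 14-3-3 binding sites. It is encoded at chr14:103385392-103503831 on the plus strand. Its level was 48.0, 48.9 and 47.2 CPM in shCtrl and 33.0, 34.2 and 34.5 CPM in shRBM39, from 960 to 1039 and 589 to 668 counts. Every shRBM39 library lay well below every shCtrl library, and the groups' SDs were 0.848 and 0.779 CPM (n = 3 each). MARK3 fell by 29.5% (log2 fold change -0.50, SE 0.05, 95% interval -0.60 to -0.40, adjusted p = 7.24e-11, edgeR), and 15.2% of tested genes had a lower fold change.

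MARK1, the member best known from neurons, where it phosphorylates tau and MAP2, lies at chr1:220528183-220664461 on the plus strand and was the scarcest of the 4 MARKs. Its level was 11.9, 11.6 and 11.8 CPM in shCtrl and 7.96, 9.06 and 8.57 CPM in shRBM39, from 240 to 246 and 156 to 166 counts. The groups were again apart, with shRBM39 the more variable. MARK1 fell by 27.6% (log2 fold change -0.47, SE 0.09, 95% interval -0.65 to -0.29, adjusted p = 3e-05, edgeR). It had the fewest counts and the widest interval of the 5 members, and that interval overlaps the one of MARK3.

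MARK4, which associates with microtubules and the centrosome, lies at chr19:45079288-45305283 on the plus strand. Its level was 32.6, 30.9 and 35.3 CPM in shCtrl and 28.9, 27.9 and 27.3 CPM in shRBM39. The lowest shCtrl library exceeded the highest shRBM39 library by a narrower margin than for MARK1 and MARK3. MARK4 fell by 14.8% (log2 fold change -0.23, SE 0.06, 95% interval -0.35 to -0.11, adjusted p = 0.000977, edgeR). Exons listed for MARK4 overlap those of GEMIN7 on the same strand, which had 315 counts over the 6 libraries and a log2 fold change of 0.14 (adjusted p = 0.49, edgeR).

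STK11, the kinase upstream of all MARKs, lies at chr19:1177558-1228435 on the plus strand. Its level was 58.7, 61.8 and 62.7 CPM in shCtrl and 53.9, 56.0 and 51.9 CPM in shRBM39. The groups did not overlap, although the gap between the closest libraries was smaller than the range within either group. STK11 fell by 11.7% (log2 fold change -0.18, SE 0.05, 95% interval -0.27 to -0.09, adjusted p = 0.00111, edgeR). It is the most GC-rich member, at 65.6% of its merged exons against 42.8% for MARK1, 45.1% for MARK3, 57.7% for MARK4 and 59.0% for MARK2, and once counts were corrected for their trend with GC content and exon length its log2 fold change was -0.08, with an adjusted p of 0.122 (edgeR). Exons of STK11 overlap those of CBARP on the opposite strand, which went from 9.6 to 6.18 CPM (log2 fold change -0.63, adjusted p = 2.62e-06, edgeR), and whether the counting used strand is not given in the sources used here.

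MARK2, the basolateral polarity kinase of epithelia, lies at chr11:63838928-63911019 on the plus strand. Its level was 66.5, 67 and 61.9 CPM in shCtrl and 64.2, 60.7 and 60.3 CPM in shRBM39. The groups overlapped, since the third shCtrl library lay below the first shRBM39 library. The log2 fold change was -0.08 (SE 0.05, 95% interval -0.17 to 0.02, adjusted p = 0.15, edgeR), so the interval holds differences from slightly above 0 to a modest decrease. The call depended on the scaling: with library totals alone MARK2 was at -0.20 (adjusted p = 0.000333, edgeR), but under that scaling the median of all tested genes was at -0.14, and MARK2 was -0.06 from that median, as it did under TMM. The TMM factors themselves went with the groups, at 1.0331 to 1.0512 in shCtrl and 0.9553 to 0.9603 in shRBM39.

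**Figure D3:**
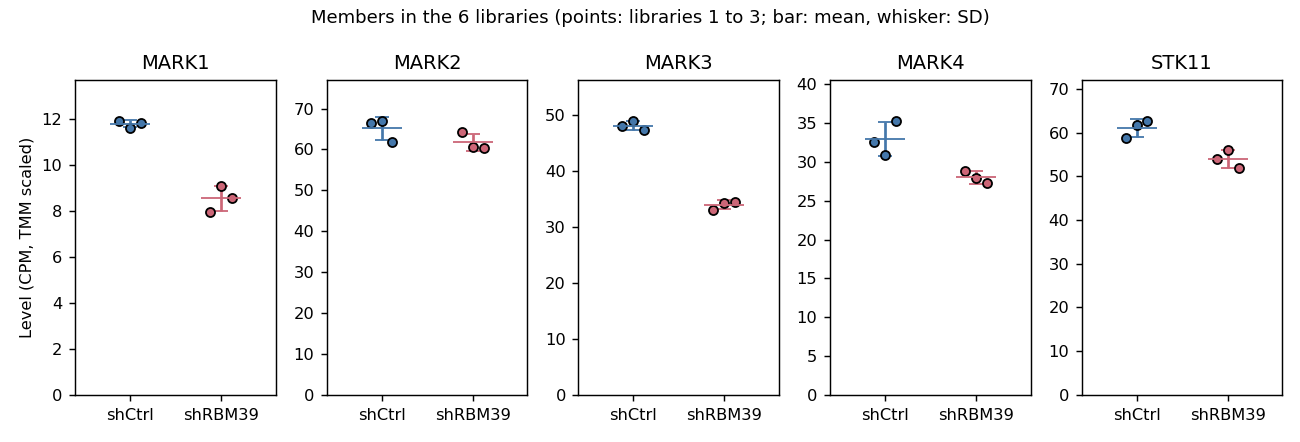
Levels of MARK1, MARK2, MARK3, MARK4 and STK11 (vertical axes, CPM scaled by TMM factors, each starting at 0) in the 3 shCtrl (blue) and 3 shRBM39 (red) libraries, with the mean and SD of each group. The groups are apart for MARK1, MARK3, MARK4 and STK11 and overlap for MARK2, at 61.9 to 67 against 60.3 to 64.2 CPM.

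Whether the members moved by different amounts was read from the ratio of their counts within a library, which no scaling factor touches. MARK2 rested at a log2 ratio of 0.47, 0.45 and 0.39 over MARK3 in shCtrl and of 0.96, 0.83 and 0.80 in shRBM39. All shRBM39 ratios lay above all shCtrl ratios, with means of 0.44 ± 0.042 and 0.86 ± 0.083 (SD, n = 3) and an exact two-sided permutation p of 0.1, the smallest possible. The log2 ratio of MARK1 to MARK2 went from -2.47 ± 0.072 to -2.86 ± 0.14 (SD, n = 3), again without overlap. Of the 10 pairs, 7 had ratios that did not overlap between groups, with exact p = 0.1 in each. The 3 that overlapped were MARK1 with MARK3 (mean difference in log2 ratio 0.04), MARK2 with STK11 (0.10) and MARK4 with STK11 (-0.05). MARK2 and MARK4 were barely apart, with a log2 ratio of 1.12 in the second library of both groups. The 10 pairs share 5 genes and are not independent, and the share of such pairs among all tested genes was not computed. Among single tested genes 32.3% were lower and 31.0% higher without overlap.

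Levels between genes were compared per kilobase, first with the deposited RPKM, which divide by all merged exons of a symbol. In shCtrl MARK2 was at 11 ± 0.468 RPKM, STK11 at 7.37 ± 0.316, MARK3 at 5.64 ± 0.123, MARK4 at 5.15 ± 0.352 and MARK1 at 2.26 ± 0.0177 (SD, n = 3 each). In shRBM39 the same genes were at 9.6 ± 0.356, 5.97 ± 0.218, 3.65 ± 0.078, 4.02 ± 0.119 and 1.51 ± 0.0934 RPKM (SD, n = 3 each). MARK2 was thus the most abundant MARK and MARK1 the least in both groups. On this scale alone MARK3 and MARK4 stood close together and exchanged places. Summed over the 4 MARKs the level was 24.1 ± 0.22 RPKM in shCtrl and 18.8 ± 0.32 in shRBM39 (SD, n = 3). The RPKM carry no TMM factor, so their change between groups holds the shift between scalings given above.

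The order depends on the length used, which differs widely for MARK3 (8891 merged bases against 3481 in the canonical transcript) and STK11 (8639 against 3293). Per kilobase of canonical transcript, a choice made after seeing the data, STK11 led in shCtrl at 18.5 CPM per kb, followed by MARK2 at 14.3 ± 0.62 and MARK3 at 13.8 ± 0.24 (SD, n = 3), MARK4 at 6.39 and MARK1 at 2.19. MARK2 and MARK3 did not differ beyond their spread in shCtrl on this scale. In shRBM39 they stood apart, at 13.6 ± 0.48 and 9.74 ± 0.22 CPM per kb (SD, n = 3). MARK4 was at 5.45 in shRBM39, so on this scale MARK3 lay well above MARK4 in both groups. The shares within the family restate the ratios above and shifted with them. The share of MARK2 in the summed RPKM of the 4 MARKs went from 45.8% ± 1.6 to 51.1% ± 1 and that of MARK3 from 23.4% ± 0.31 to 19.4% ± 0.74 (SD, n = 3). In the same sum the share of MARK1 went from 9.41% to 8.03%, and that of MARK4 was 21.4% in both groups. With canonical lengths MARK2 went from 39% to 44.7% and MARK3 from 37.6% to 32.1%. MARK2 had the highest and MARK3 the lowest log2 fold change of the 4 MARKs. With these fold changes the direction of their shares is fixed whatever length is used, and only the sizes depend on it. For MARK3 this rests on a fold change close to that of MARK1, and their ratio overlapped between groups.

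**Figure D4:**
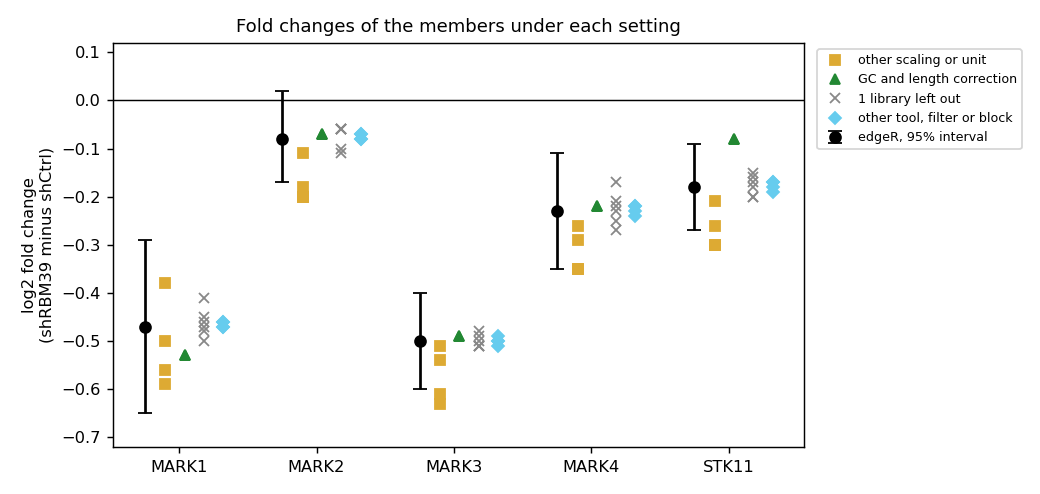
Log2 fold change (shRBM39 minus shCtrl, vertical axis) of each member in the edgeR fit with its 95% interval (black) and under each other setting (coloured symbols, 1 per setting). All values lie below 0, from -0.63 to -0.48 for MARK3 and from -0.20 to -0.06 for MARK2, and the GC and length correction brings STK11 to -0.08.

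Among the genes with the most similar profiles over the 6 libraries, by the root mean square difference of log2 CPM after centring each gene, the nearest of 12057 genes compared were ROBO1 (0.016), RTN3 (0.017) and ZNF697 (0.021) for MARK3 and ZNF654 (0.02), HSD17B1 (0.023) and CTC-250I14.6 (0.025) for MARK1. For MARK2 they were TOR4A (0.018), AGAP1 (0.019) and VAC14 (0.022). For MARK4 they were ROCK1 (0.017), ZCCHC11 (0.017) and LRRC37A16P (0.027), and for STK11 FAM120AOS (0.013), DR1 (0.014) and RRAGD (0.015). Within the family the closest pair was MARK1 and MARK3 (0.052), then MARK4 and STK11 (0.066), and the most distant was MARK2 and MARK3 (0.22). With 6 libraries in 2 groups these distances largely follow the fold change.

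Around the members, 56 genes of 7 lists were counted, of which 54 were tested. Of these 15 were higher (29.2% of all tested genes were), 23 lower (29.9%) and 16 did not pass the test, and their median log2 fold change was -0.10. In the LKB1 complex 2 of 4 genes rose and 1 fell. CAB39 (MO25-alpha), the scaffold of the active complex, fell from 69.9 to 48.1 CPM (log2 fold change -0.54, SE 0.05, adjusted p = 1.9e-10, edgeR), whereas its relative CAB39L rose by 0.31 and the pseudokinase STRADB by 0.41 on the log2 scale. STRADA, the other pseudokinase, was at 25.4 and 23.8 CPM (log2 fold change -0.10, adjusted p = 0.194, edgeR).

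Of the 10 other kinases that STK11 activates, 4 fell (29.9% of all tested genes did), 1 rose (29.2%) and 5 did not pass the test. PRKAA1, the alpha-1 catalytic subunit of AMPK, fell from 32.7 to 22.7 CPM (log2 fold change -0.53, adjusted p = 2.15e-09, edgeR), and SIK3 fell by 0.32 on the log2 scale. BRSK2, a kinase of neuronal polarity, rose from 1.16 to 4.21 CPM (log2 fold change 1.84, SE 0.21, adjusted p = 1.67e-09, edgeR), from 14, 37 and 21 counts to 75, 78 and 83. The summed level of 4 neuron markers was higher in shRBM39, at 78.4 to 85.6 CPM against 44 to 49.6 CPM. Most of the sum came from TUBB3, the only neuron marker called in edgeR. SYP was not called (log2 fold change 0.06, adjusted p = 0.52, edgeR). RBFOX3 and SNAP25 had no more than 5 counts in any library. The part of this sum in the BRSK2 result was not tested.

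Among 8 PAR and atypical PKC genes 4 fell (29.9% of all tested genes did), 1 rose (29.2%) and 3 did not pass the test. The junction scaffolds PARD3 and PARD3B fell by 0.46 and 0.41 on the log2 scale (adjusted p = 3.23e-09 and 0.00912, edgeR). PARD3B lost its call when the third shRBM39 library was left out (-0.27, adjusted p = 0.106, edgeR) and in DESeq2 (-0.40, adjusted p = 0.0534). CDC42, the small GTPase that activates the PAR complex, rose from 61.2 to 92.1 CPM (log2 fold change 0.59, adjusted p = 1.42e-13, edgeR). Of 7 Scribble and Crumbs genes 2 rose and 3 fell, beside the same shares of all tested genes. LLGL1 was higher by 0.39, its relative LLGL2 was at -0.24 and PATJ at -0.31 on the log2 scale.

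Of 6 regulators of MARK activity 5 were tested, and PAK5 had 0 counts in all libraries. Of the 5, 2 rose (29.2% of all tested genes did), 1 fell (29.9%) and 2 did not pass the test. USP9X, a deubiquitinase that binds MARK4, fell from 199 to 142 CPM (log2 fold change -0.49, adjusted p = 3.01e-13, edgeR). TAOK2, of the kinase family whose member TAO1 (MARKK) activates MARKs, rose by 0.43 on the log2 scale (adjusted p = 4.18e-10, edgeR). GSK3B, which phosphorylates MARK2, rose by 0.15 (adjusted p = 0.0236, edgeR). In edgeR this call was lost with library totals (0.02, adjusted p = 0.761) and upper-quartile scaling (0.11, 0.0812). It was also lost there without the first shCtrl library (0.12, adjusted p = 0.0883), the second (0.13, 0.0865) or the first shRBM39 library (0.13, 0.0749). DESeq2 (0.15, adjusted p = 0.0705) and limma on log2(RPKM + 1) (0.02, 0.797) and log2(RPKM + 0.1) (0.02, 0.789) did not call it either.

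All 7 genes for 14-3-3 proteins, the phosphoserine-binding adaptors that hold phosphorylated MARKs and MARK substrates in the cytoplasm, rose in shRBM39, by 0.20 to 0.60 on the log2 scale with a median of 0.46, and no gene's groups overlapped (31.0% of tested genes were higher without overlap). On the RPKM scale 6 of the 7 passed the test. SFN (14-3-3 sigma), an epithelial form, went from 110 to 166 CPM (log2 fold change 0.60, adjusted p = 1.24e-13, edgeR). YWHAB rose by 0.56, and YWHAE, the most highly counted, rose from 1435 to 2083 CPM (log2 fold change 0.54, adjusted p = 5.42e-15, edgeR).

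Of 14 genes for MARK substrates 13 were tested and 10 fell (29.9% of all tested genes did), none rose and 3 did not pass the test, with a median of -0.26. After the GC and length correction 6 of the 13 were lower, and 10955 of all genes were called in either direction. HDAC5, a class IIa histone deacetylase that leaves the nucleus when phosphorylated, had 19.9, 23.1 and 20.5 CPM in shCtrl and 5.72, 5.98 and 6.14 CPM in shRBM39, and fell by 71.9% (log2 fold change -1.83, SE 0.09, adjusted p = 1e-18, edgeR). MAP2, a microtubule-associated protein, had 11.7, 11.2 and 12.8 CPM in shCtrl and 4.85, 4.71 and 3.77 CPM in shRBM39, and fell by 62.8% (log2 fold change -1.42, SE 0.11, adjusted p = 1.92e-13, edgeR). RAB11FIP2, a Rab11 effector of recycling endosomes, fell from 14.2 to 8.01 CPM (log2 fold change -0.83, adjusted p = 1.09e-09, edgeR). DCX, a neuronal substrate, had no more than 1 count in any library.

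**Figure D5:**
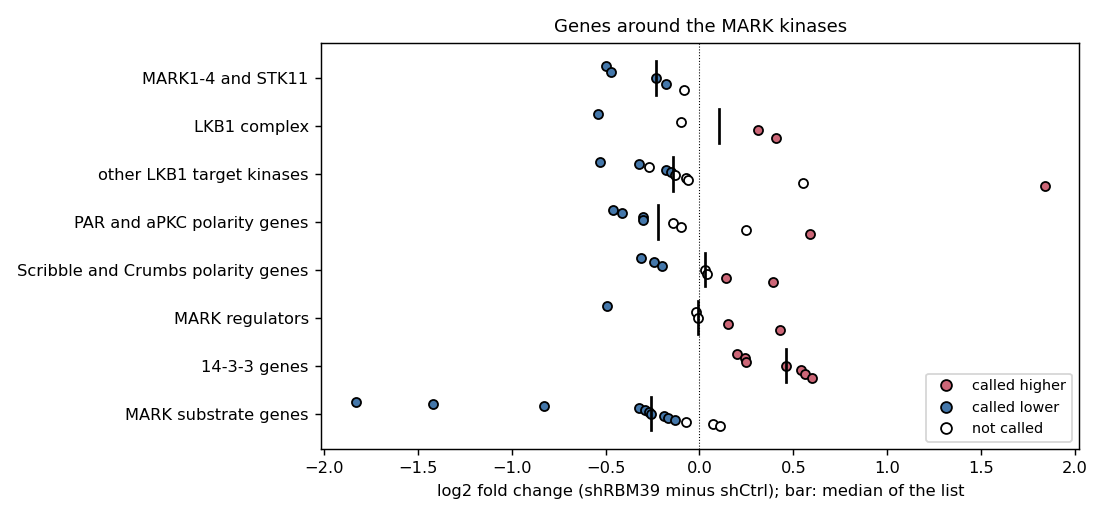
Log2 fold change (horizontal axis, shRBM39 minus shCtrl) of each tested gene of the members and of the 7 lists around them, filled red where called higher, blue where called lower and open where not called, with the list's median as a bar. All 7 of the 14-3-3 genes lie right of 0, and HDAC5, MAP2 and RAB11FIP2 lie farthest left among the substrates.

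Among the splicing records, 6 of the 56 list genes had 11 records, against 1 for the members. Of these, 8 were lower in group 1 and 3 higher, and 8 passed the edgeR fit over the listed records (6 lower, 2 higher), beside the 37.3% of all listed records given above. Several records share exons, so these counts are not of independent changes. For mutually exclusive exons lower and higher refer to the exon whose level is given. STRADA had the best covered of the exchanges, a pair of mutually exclusive exons (exons 5 and 3 of its canonical transcript). The level is that of exon 3, the shorter of the pair, as the reads and lengths show. Its means were 0.656 ± 0.052 in group 1 and 0.449 ± 0.058 in group 2 (SD, n = 3), from 76 to 91 reads per library (adjusted p over the listed records 0.000782, edgeR). Another STRADA record, of 2 donors of exon 11, was lower in group 1. Its longer form was at 0.576 ± 0.190 and 0.913 ± 0.088 (SD, n = 3; adjusted p = 0.016, edgeR), on 10 to 25 reads per library. Exon 18 of DLG1, a basolateral scaffold, was at 0.342 ± 0.082 and 0.616 ± 0.022 (SD, n = 3; adjusted p = 0.0099, edgeR, lost at 0.0714 without the second value of group 1). A 34-base exon of DLG1 next to it went the other way, at 0.432 ± 0.055 and 0.115 ± 0.1 (SD, n = 3; adjusted p = 0.00561, edgeR), on 10 to 21 reads per library, and lost its call without the first value of group 1 (0.0572) or the third of group 2 (0.0644). Each of these DLG1 records has the other's exon as a flank, so they are not separate changes. Another record took these exons as mutually exclusive, with exon 18 at 0.399 ± 0.078 in group 1 and 0.755 ± 0.036 in group 2 (SD, n = 3; adjusted p = 5.7e-05, edgeR), from 31 to 50 reads per library. Exon 6 of CDC25C, a MARK3 substrate, was at 0.573 ± 0.132 and 0.917 ± 0.035 (SD, n = 3; adjusted p = 0.00153, edgeR). A CDC25C record of exons 8 and 7 as mutually exclusive, with exon 6 as a flank, was at 0.655 and 0.815 (adjusted p = 0.0496, edgeR). The deepest record was SCRIB, a basolateral scaffold, whose exon 16 was at 0.321 ± 0.051 and 0.453 ± 0.065 (SD, n = 3; adjusted p = 0.00425, edgeR) from 104 to 158 reads, a call lost without the first value of group 1 (0.107), the second of group 2 (0.0623) or the third (0.0585). The records of exon 12 of PARD3, exon 9 of SIK3 and exon 3 of STRADA as a skipped exon did not pass this fit (adjusted p = 0.0808, 0.115 and 0.0708, edgeR). The last was at 0.818 in group 1 and 0.613 in group 2, and concerns the same exon as the STRADA exchange above. Like the MARK2 record, all of these were listed by the authors' thresholds on this contrast.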

How the data were processed

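Libraries were made with a stranded mRNA kit with unique identifiers. The submitters' processing notes name Trimmomatic 0.36, STAR 2.5.3a, featureCounts (Subread 1.5.1), edgeR 3.12.1 and GRCh38, whereas annotation release, strand setting and collapsing of identifiers are not given in the sources used here. Raw counts over the merged exons of each symbol were deposited, with RPKM made from them. Columns named NC were read as shCtrl.

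The test was edgeR 4.0.16 in R 4.3.3 (filterByExpr, TMM, quasi-likelihood, group as the only term), Benjamini-Hochberg adjusted over 18243 genes at 0.05, and was tested on simulated data. Alternatives were DESeq2 1.42.0, limma 3.58.1 on log2(RPKM + 1) and log2(RPKM + 0.1), other scalings and filters, GC and length correction, a replicate block and leaving out each library. Libraries of a group differed by more than counting noise.

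The authors ran rMATS (version not stated) and deposited inclusion and skipping read counts and inclusion levels as a fraction. Their p-value and FDR columns were used only to test the listing thresholds, and their tally of events was not used.

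Members and lists were chosen with earlier results of these data known. Each list is represented by its 1 to 3 called genes of largest absolute log2 fold change, and STRADA was added after its value was seen. Likeness was computed for genes averaging 5 CPM or more, 3 named per member.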

Additional observations from a re-analysis of the deposited data

How the results depend on the processing

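The log2 fold changes of MARK1, MARK3 and MARK4 kept their direction and their call under every alternative run, within -0.59 to -0.38, -0.63 to -0.48 and -0.35 to -0.17. MARK2 kept its direction and became called with upper-quartile scaling (-0.11, adjusted p = 0.0395, edgeR), library totals alone (-0.20), limma on log2(RPKM + 1) (-0.18) and limma on log2(RPKM + 0.1) (-0.20), settings under which the median of all tested genes lay at -0.05, -0.14, -0.08 and -0.13. STK11 lost its call with the GC and length correction (-0.08) and with that correction and the replicate block (-0.08, adjusted p = 0.134, edgeR), where the median lay at -0.06. Leaving out 1 library at a time changed no member's call, with ranges of -0.50 to -0.41 for MARK1, -0.11 to -0.06 for MARK2, -0.51 to -0.48 for MARK3, -0.27 to -0.17 for MARK4 and -0.20 to -0.15 for STK11. The number of genes called was 10790, 9081 with DESeq2 and at most 11146 (library totals), and 10138 to 10263 with 1 library left out. List genes called lower numbered 23, from 18 to 30, and higher 15, from 12 to 15.

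Same-numbered libraries did not deviate together (correlations 0.006, -0.028 and 0), so the numbers were not taken to pair them. With the replicate block 10810 genes were called, and MARK1 was at -0.47, MARK2 at -0.08, MARK3 at -0.50, MARK4 at -0.23 and STK11 at -0.18, with no member's call changed. The MARK2 exon 15 difference kept its direction under its 9 alternatives, within -0.328 to -0.21, and its call under the 7 that were tested (adjusted p 6.34e-05 to 0.0189, edgeR). The levels without a correction for effective length (-0.21) and from pooled reads (-0.269) have no test. MARK1, with 156 to 246 counts per library, had the least precise fold change of the members.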
